A study of Mus musculus with 9 samples.

Results

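The genes described here encode the machinery of glutamate transmission: the transporters that load glutamate into synaptic vesicles, the ionotropic and metabotropic receptors, and the scaffold proteins that hold the receptors at the postsynaptic membrane. They were chosen by gene symbol from a list of 35. Of these, 34 were among the 14351 genes measured in hypothalamus from Clic1 KO mice and their WT controls. Slc17a7, the vesicular transporter of most cortical neurons, was not analysed here. The comparison asks whether loss of Clic1, an intracellular chloride channel protein, altered the expression of these genes in the brain region that controls food intake.

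Glutamate is the main excitatory transmitter of the brain. It is packed into vesicles by vesicular glutamate transporters and, once released, acts on fast ion channel receptors of the AMPA, kainate and NMDA classes and on slower, G protein-coupled metabotropic receptors. Under the membrane, scaffolds of the MAGUK, Shank and Homer families link these receptors to one another and to the cytoskeleton. In the hypothalamus, glutamate neurons mostly carry the vesicular transporter Slc17a6, and excitatory input to arcuate neurons is known to change with feeding state.

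RNA was sequenced from whole hypothalamus of male mice, with 1 library per mouse, and the groups were 5 KO libraries (replicates 2, 4, 6, 8 and 10) and 4 WT libraries (replicates 1, 3, 9 and 11), and values of single libraries are listed in this order throughout. The KO is of the whole body and not limited to a cell type, and the controls were WT littermates, all on normal chow. The sample labels give the strain as C57b/6J, whereas the methods of the study place the KO line on a CD-1 background, and the labels carry a treatment note naming perigonadal fat although source and tissue read hypothalamus. No drug or dietary treatment, and no age for these mice, was given in the labels. P-values measure the spread between these mice.

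The labels of replicate 10 conflict. Its title and its treatment label read WT, while its description starts with the K used for the KO libraries, and it was placed with the KO libraries on that basis. Its Clic1 level was 1.43 normalized CPM, beside 0.733 to 1.93 over all KO libraries and 3.58 to 5.52 in the WT libraries. It was also the deepest library, at an estimated 20800000 reads against 5470000 to 11000000 reads in the others. The results are therefore given with it, without it and, where the answer changes, with it counted as WT. Of 10 genes typical of the hypothalamus, all 10 were measured, whereas 5 of 6 genes of adipose tissue had no row in the table.

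Clic1 averaged 1.33 ± 0.429 normalized CPM in KO (SD, n = 5), against 4.77 ± 0.868 in WT hypothalamus (SD, n = 4), a difference of −1.80 ± 0.27 (SE) on the log2(CPM + 0.1) scale (limma, adjusted p = 0.0153, and exact permutation test, two-sided, p = 0.0159, the smallest that 5 against 4 allows). The adjusted p was 0.00494 without KO replicate 10 and 0.501 with that library counted as WT. The call was lost when WT replicate 1, 3 or 9 was left out, with adjusted p-values of 0.0893, 0.0826 and 0.0702. Over all genes, 41 of 14351 passed an adjusted p of 0.05 in limma, 20 higher and 21 lower in KO, which is 0.286%.

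None of the 34 glutamate genes changed between KO and WT hypothalamus at an adjusted p of 0.05. The smallest adjusted p was 0.598, for Slc17a6. At an unadjusted p under 0.05, limma passed 1 of the 34 (Slc17a6), against 6.5% of all genes. On the estimated reads, limma-voom passed 2 at an unadjusted p under 0.05 (Slc17a6 and Grm3), against 7.83% of all genes, and 0 at an adjusted p of 0.05, against 0.251%. The differences ran from −0.17 for Grm3 to 0.15 for Grin2c on the log2 scale. There were 21 genes below 0 and 13 above it, with a median of −0.03, beside 49.6% of all genes below 0 and a median of 0.00.

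Without KO replicate 10, again 0 of the 34 genes passed an adjusted p of 0.05 in limma, beside 87 of all genes or 0.606%. At an unadjusted p under 0.05 the count was then 2 (Slc17a6 and Grin2d), against 10.5% of all genes. The smallest adjusted p was 0.230, the median difference became 0.00, with 16 genes below 0 and 18 above it, and 7 of the 34 changed sign. Leaving out KO replicate 2 or KO replicate 6 in turn also gave 2 genes at an unadjusted p under 0.05, in each case Slc17a6 and Grm3, against 5.84% and 6.66% of all genes. With replicate 10 counted as WT, these were Grin2d and Shank2, against 6.65% of all genes. The median was then 0.03 and 17 genes changed sign.

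**Figure D1:**
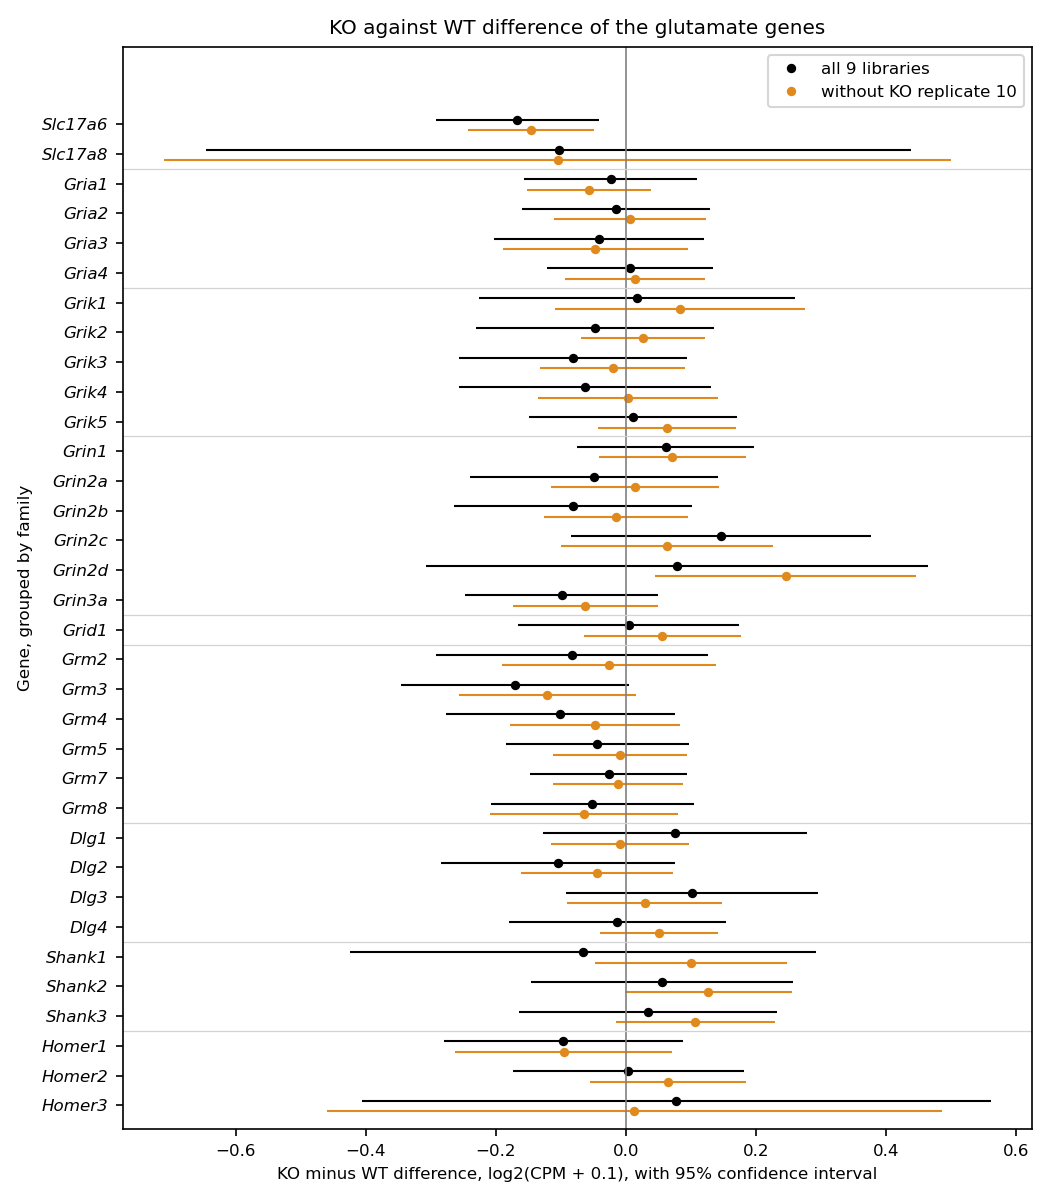
The difference between KO and WT of each of the 34 genes, in rows grouped by family, on the log2(CPM + 0.1) scale, with its 95% confidence interval from limma, for all 9 libraries (black) and without KO replicate 10 (orange). The black points lie between −0.17 and 0.15, and the intervals of Slc17a6 alone (both colours) and of Grin2d without KO replicate 10 leave out 0.

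The size of difference that these libraries could show was read from the confidence intervals. The 95% confidence intervals of 28 of the 34 genes lay within 0.3 of 0 on the log2 scale, which is a change of 1.23-fold in either direction, and those of 32 lay within 0.5, or 1.41-fold. The 2 genes with wider intervals were Slc17a8 and Homer3, the least abundant of their families. Without KO replicate 10, 31 intervals lay within 0.3 and 33 within 0.5. At the narrower limit of 0.2, or 1.15-fold, the counts were 10 with all libraries and 22 without KO replicate 10, so that for many of these genes a change of that size was not excluded.

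Slc17a6, the vesicular glutamate transporter of most hypothalamic glutamate neurons, lies on chromosome 7 from 51622006 to 51671119 on the plus strand (GRCm38). It was measured at 349, 381, 356, 387 and 342 normalized CPM in KO, and at 400, 410, 421 and 397 in WT. Every KO library was thus below every WT library, and among the 34 genes this held, in either direction, for Slc17a6 alone (2.94%, beside 3.41% of all genes). The means were 363 ± 19.8 (SD, n = 5) and 407 ± 10.6 (SD, n = 4), so that KO stood at 89.2% of WT. The difference was −0.17 with a 95% confidence interval from −0.29 to −0.04, and it did not pass the adjustment over all genes (limma, adjusted p = 0.598, with an exact permutation p of 0.0159). Without KO replicate 10 it was −0.15 with an adjusted p of 0.230, and with replicate 10 as WT it was −0.10 with an adjusted p of 0.794. In bulk tissue, fewer cells that carry Slc17a6 and less Slc17a6 RNA per cell cannot be told apart.

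The thalamus, which adjoins the dissected region, is also rich in Slc17a6. The summed level of 6 thalamic genes was 226 to 336 normalized CPM in KO and 266 to 325 in WT libraries, and the 8 pan-neuronal genes summed to 3500 to 3870 in KO and 3490 to 3960 in WT. In neither list did the groups separate, and the part of either in the level of Slc17a6 was not tested. Slc17a8, which marks small groups of neurons that often release a further transmitter, was near the lower end of the table at 1.97 ± 0.526 normalized CPM in KO (SD, n = 5), and in WT at 2.1 ± 0.417 (SD, n = 4). Its interval, from −0.65 to 0.44, was too wide to show a change of moderate size.

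**Figure D2:**
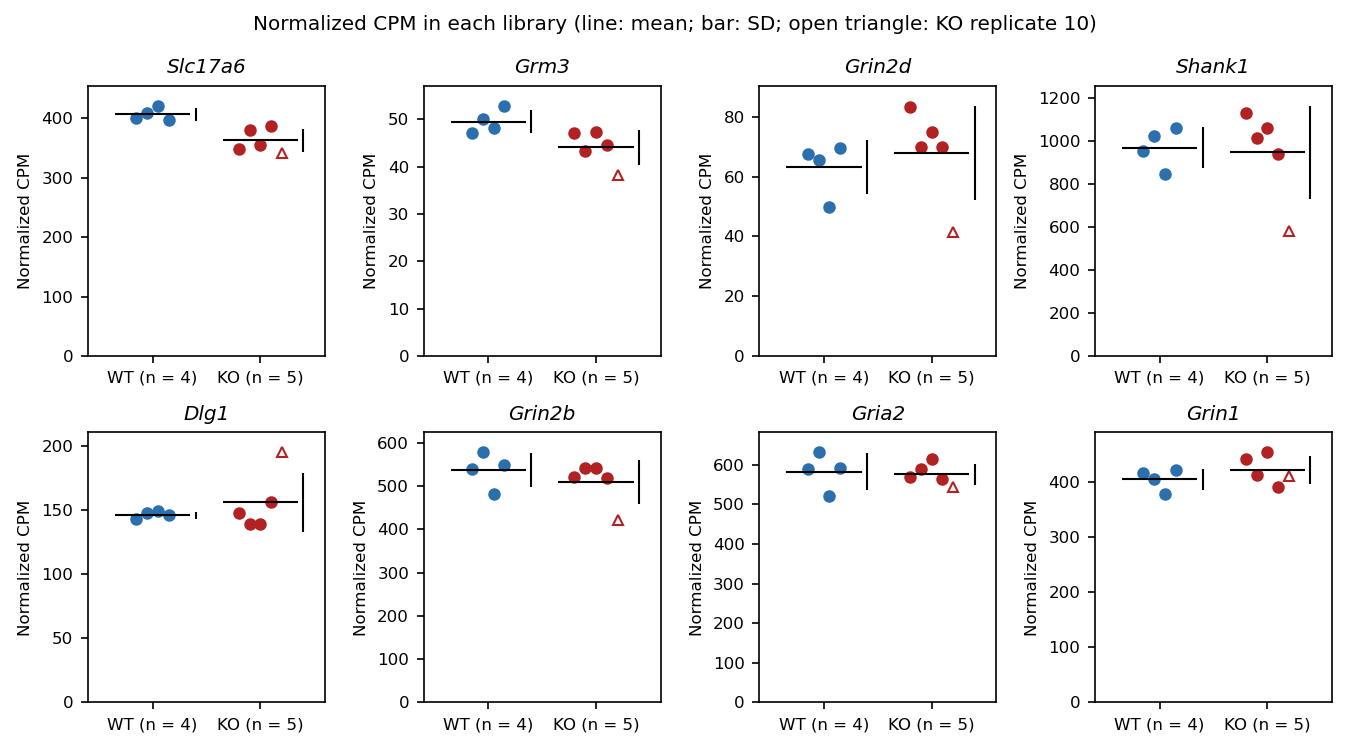
Normalized CPM of 8 of the genes in each library, with WT in blue and KO in red, the mean as a horizontal line, the SD as a vertical bar and KO replicate 10 as an open triangle. In Slc17a6 the KO values, 342 to 387, lie below the WT values, 397 to 421, while in Grin2d, Shank1 and Grin2b the triangle lies apart from the other KO values.

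The AMPA receptor subunits carry most fast excitation, and Gria2 is the subunit whose RNA editing makes the channel impermeable to calcium. All 4 differed by 0.04 or less on the log2 scale, from −0.04 for Gria3 to 0.01 for Gria4. Gria1 averaged 498 ± 27.7 normalized CPM in KO (SD, n = 5), and 506 ± 25.7 in WT (SD, n = 4). For Gria2 the means were 576 ± 27.2 and 583 ± 45.5. Gria3 stood at 131 ± 5.43 and 136 ± 13.6, and Gria4 at 177 ± 3.07 and 177 ± 11.2. In all 4 genes the KO and WT libraries overlapped, and the widest interval of the family ran from −0.20 to 0.12, for Gria3. The log2 ratio of Gria1 to Gria2 within a library, from which scaling cancels, was −0.21 ± 0.12 in KO and −0.20 ± 0.07 in WT (difference −0.01, exact permutation test, two-sided, p = 0.937, adjusted over 2 ratios 0.937).

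Among the kainate receptor subunits, Grik1 to Grik3 form channels of their own and Grik4 and Grik5 join them in mixed receptors. The differences ran from −0.08 for Grik3 to 0.02 for Grik1. Grik3 was at 197, 202, 198, 217 and 165 normalized CPM in KO and at 225, 202, 195 and 204 in WT. Only KO replicate 10 lay below the WT range, and without it the difference of Grik3 was −0.02. The same library was the lowest of all 9 for each of the 5 kainate subunits. Grik2 was 217 in KO replicate 10 and 262 to 289 in the other 8 libraries, and its difference of −0.05 became 0.03 without that library. Grik1 averaged 42.6 ± 5.15 in KO and 42.1 ± 5.55 in WT, Grik4 42.3 ± 4.28 and 44 ± 2.24, and Grik5 158 ± 12.9 and 156 ± 8 (SD, n = 5 and n = 4).

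NMDA receptors need the subunit Grin1, which joins Grin2 subunits that set the speed of the channel and its block by magnesium, or the less permeable Grin3a. Of the 6 genes, 3 lay below 0 and 3 above. Grin1 was at 443, 414, 454, 392 and 412 normalized CPM in KO and at 416, 405, 378 and 422 in the WT libraries. KO replicates 2 and 6 exceeded all WT libraries and the other 3 lay among them, with a difference of 0.06 (limma, adjusted p = 0.880). An antisense gene, Grin1os, overlaps 13.5% of the exonic bases of Grin1, and whether counting used strand is not given in the sources used here.

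Grin2b, the subunit that dominates early in life, was at 522, 543, 542, 518 and 422 normalized CPM in KO and at 540, 578, 483 and 550 in WT. The value of KO replicate 10 was below all others, and the difference of −0.08 became −0.02 without it. Grin3a was at 155, 169, 173, 163 and 145 in KO and at 166, 181, 163 and 179 in WT. KO replicates 2 and 10 were below the WT range and the rest within it (−0.10, limma, adjusted p = 0.847).

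Grin2c, better known from cerebellum and astrocytes, had the highest difference of all 34 genes, 0.15. It was at 34.1, 31.4, 30, 29.7 and 41.8 in KO and at 30.1, 27.8, 31.2 and 30.7 in WT. The value of KO replicate 10 was far above the rest, and without it the difference was 0.06. Grin2a, which rises as synapses mature, averaged 141 ± 15.3 in KO and 146 ± 10.3 in WT (SD, n = 5 and n = 4). The log2 ratio of Grin2a to Grin2b was −1.85 ± 0.09 in KO and −1.88 ± 0.07 in WT (difference 0.03, exact permutation test, two-sided, p = 0.619, adjusted over 2 ratios 0.937).

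Grin2d, a slow subunit of deep brain regions, was the NMDA gene whose comparison turned most on KO replicate 10. Its values were 83.2, 69.9, 74.8, 70 and 41.6 normalized CPM in KO, and 67.5, 65.7, 49.9 and 69.6 in WT. With all libraries the groups overlapped and the difference was 0.08, with an interval from −0.31 to 0.46. Without KO replicate 10, every KO library was above every WT library, and the means were 74.5 ± 6.26 (SD, n = 4) and 63.2 ± 9.02 (SD, n = 4). The difference was then 0.25 ± 0.09 (SE) and did not pass the adjustment (limma, adjusted p = 0.349, with an exact permutation p of 0.0286, the smallest that 4 against 4 allows). Groups without overlap were then found for 2 of the 34 genes or 5.88%, beside 6.06% of all genes. The gene Gm45441 on the opposite strand overlaps 9.66% of the exonic bases of Grin2d. Grid1, a delta receptor that acts as a synaptic adhesion protein more than as a channel, averaged 118 ± 9.98 in KO and 117 ± 7.6 in WT (difference 0.00).

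The 6 metabotropic receptors all lay below 0, from −0.17 for Grm3 to −0.03 for Grm7, and none passed the test. Without KO replicate 10 they remained below 0, from −0.12 to −0.01. With replicate 10 as WT, Grm2, Grm4, Grm5 and Grm7 lay above 0 (0.036, 0.015, 0.028 and 0.005), and Grm3 and Grm8 below it. Grm3, a presynaptic and astrocytic receptor that lowers cyclic AMP, was at 47, 43.2, 47.3, 44.6 and 38.2 normalized CPM in KO and at 47, 50, 48.2 and 52.8 in WT. The KO libraries touched the WT range only at its lower end. The means were 44.1 ± 3.67 (SD, n = 5) and 49.5 ± 2.5 (SD, n = 4), and the difference of −0.17 had a 95% confidence interval from −0.35 to 0.01 (limma, adjusted p = 0.773, with an exact permutation p of 0.0317). It was −0.12 without KO replicate 10 and −0.05 with replicate 10 as WT. The summed level of 6 astrocyte genes was 1600 to 1730 in KO and 1630 to 1780 in WT libraries, and its part in the level of Grm3 was not tested.

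Grm2, of the same receptor group as Grm3, was at 49.7, 49.4, 53.1, 53 and 42 in KO and at 58.7, 45.1, 54.6 and 51.5 in WT. Apart from KO replicate 10 all KO values were inside the WT range, and Gm28111 on the opposite strand covers 9.6% of its exonic bases. Grm4, a presynaptic brake on transmitter release, is the only one of the 34 genes on chromosome 17, which also holds Clic1, at a distance of 7.53 Mb. It was at 57.7, 52.6, 58.2, 51.8 and 45.7 in KO and at 58.6, 56, 57.4 and 55.5 in WT. KO replicates 4, 8 and 10 were below all WT libraries (−0.10, limma, adjusted p = 0.862).

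Grm7 and Grm8 belong to the same presynaptic group as Grm4. Grm7 averaged 117 ± 4.03 in KO and 119 ± 2.56 in WT, and Grm8 40.4 ± 1.48 and 41.9 ± 2.62 (SD, n = 5 and n = 4). Grm5, the postsynaptic receptor that signals through phospholipase C and binds Homer proteins, averaged 246 ± 14 and 254 ± 14.5, with a difference of −0.04.

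Of the MAGUK scaffolds, which bind the tails of NMDA receptors and of AMPA receptor auxiliary proteins, Dlg4 is the most studied in the postsynaptic density. It averaged 512 ± 51.6 normalized CPM in KO and 515 ± 9.83 in WT (SD, n = 5 and n = 4), a difference of −0.01. Dlg2 was at 359, 381, 397, 359 and 303 in KO and at 380, 425, 357 and 382 in WT. Here too KO replicate 10 alone lay below the WT range, and the difference of −0.10 was −0.04 without it. Dlg3 was at 116, 115, 110, 127 and 150 in KO and at 115, 121, 109 and 113 in WT. KO replicates 8 and 10 exceeded the WT range, and the difference of 0.10 was 0.03 without KO replicate 10. Dlg1, known for carrying receptors to the membrane, was 139 to 156 in the other KO libraries, 143 to 149 in WT and 195 in KO replicate 10. Within 1 family, then, that library was lowest for Dlg2 and Dlg4 and highest for Dlg1 and Dlg3.

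The Shank proteins are the large platforms beneath the MAGUK layer. Shank1, which had the highest level of all 34 genes before correction for length, was 936 to 1130 normalized CPM in the other KO libraries, 844 to 1060 in WT and 581 in KO replicate 10. The difference was −0.07 with all libraries and 0.10 without KO replicate 10. Shank2 averaged 152 ± 18.6 in KO and 145 ± 8.72 in WT, and Shank3 177 ± 22.9 and 171 ± 4.41 (SD, n = 5 and n = 4). KO replicate 10 was the lowest library for all 3 Shank genes. Without it the 3 differences were 0.10, 0.13 and 0.11, all above 0, and none passed the test (limma, smallest adjusted p = 0.485, for Shank2).

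The Homer proteins couple Grm5 to Shank and to calcium stores, and a short form of Homer1 is induced by neuronal activity. Homer1 was at 56, 62.9, 52.4, 65.8 and 58.9 normalized CPM in KO and at 69.7, 63.2, 58.5 and 61.4 in WT. KO replicates 2 and 6 lay below the WT range and the others within it, and the difference of −0.10 was the same without KO replicate 10. Short and long forms of Homer1 cannot be told apart in values summed per gene. Homer2 averaged 58.6 ± 5.54 in KO and 58.3 ± 1.91 in WT (SD, n = 5 and n = 4). Homer3 was low, at 6.38 ± 1.62 and 5.91 ± 1.05, and Ddx49 on the opposite strand covers 25.4% of its exonic bases.

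**Figure D3:**
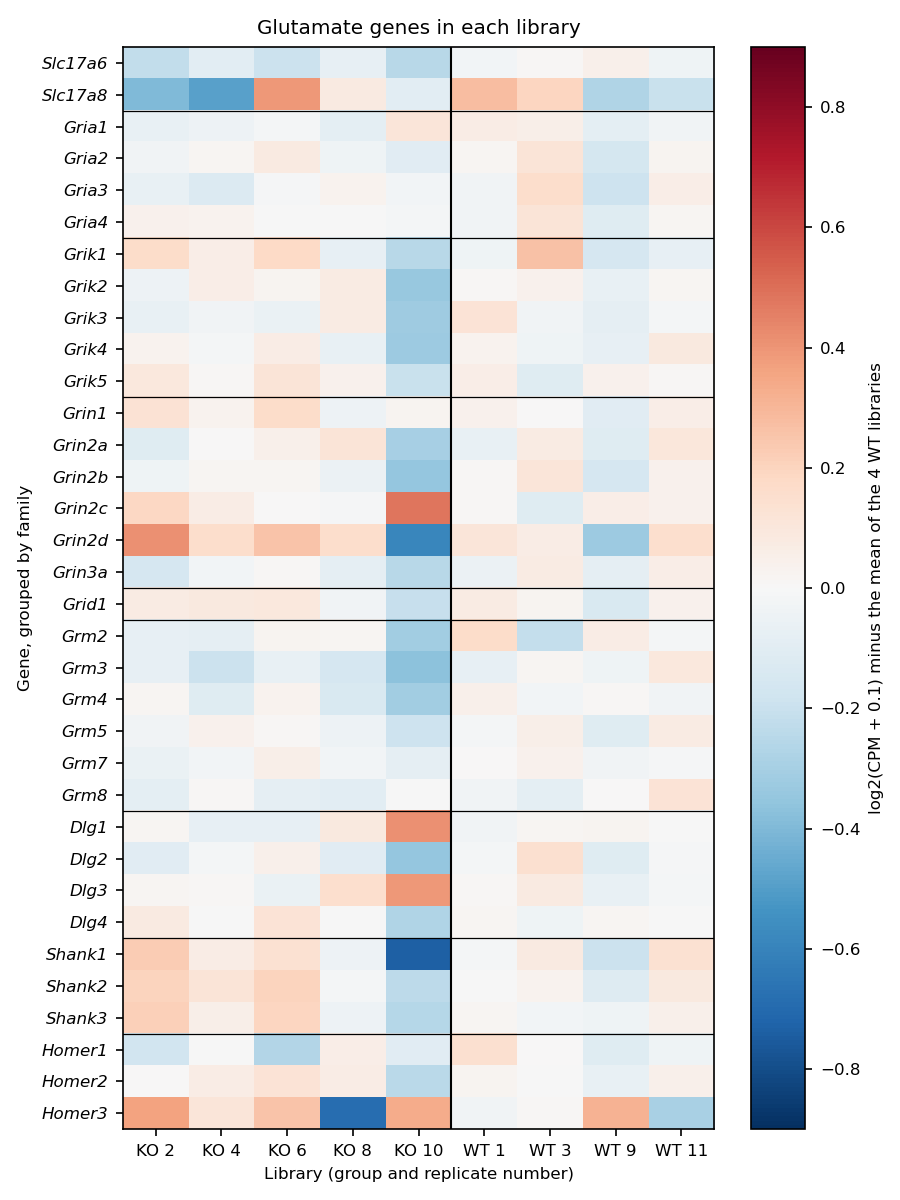
The level of each of the 34 genes (rows, by family) in each library (columns), as log2(CPM + 0.1) minus the mean of the 4 WT libraries, with blue below and red above it. KO replicate 10 is blue for most genes and red mainly for Grin2c, Dlg1, Dlg3 and Homer3, with Gria1 paler. The other KO libraries do not show this pattern as a whole, though Homer3 is also red in KO replicates 2 and 6.

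KO replicate 10 thus stood apart in several of these families. For KO replicate 10, the value was below or above those of all other 8 libraries in 26 of the 34 genes (76.5%), beside 58.5% of all genes. It was the lowest for 22 of them and the highest for 4 (Gria1, Grin2c, Dlg1 and Dlg3), whereas over all genes it was lowest for 28.3% and highest for 30.1%. The median deviation of the 34 genes in this library was −0.25 on the log2 scale, beside 0.00 over all genes. In each of the other 8 libraries, 2 to 8 of the 34 genes were outside the range of the rest.

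Against the mean of the other 4 KO libraries, KO replicate 10 was lower by most in Grin2d and Shank1 (−0.84 for each on the log2 scale), followed by Grik2 and Shank3 (−0.37 each). It was higher in Dlg1 and Grin2c (0.42 each) and in Dlg3 (0.36). The 8 genes for which it lay within the range of the others were Slc17a8, Gria2, Gria3, Gria4, Grin1, Grm8, Homer1 and Homer3. Marker genes of other neurons did not move together in this library. The summed level of 4 genes of GABA neurons was 886 in it and 1250 to 1530 in the others. All 4 of those genes were below the range of the rest. Sums for thalamus (226 against 266 to 336), striatum (98.6 against 110 to 122) and oligodendrocytes (3480 against 3640 to 4550) were also the lowest. The sum of 10 hypothalamic genes was instead the highest (857 against 637 to 847). In that list Avp, Pmch and Pomc were above all other libraries, and Hcrt, Trh, Otp, Sim1 and Nkx2-1 below. Sums of 8 pan-neuronal genes (3870 against 3490 to 3960) and 6 astrocyte genes (1720 against 1600 to 1780) were within the range, but their genes split. Nefl, Stmn2, Tubb3, Gfap and Aldh1l1 were above all other libraries, and Rbfox3, Eno2, Aqp4, Gja1, Slc4a4 and Sox9 below. The part of these marker genes in the levels of the glutamate genes, and that of the greater depth of this library, was not tested.

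**Figure D4:**
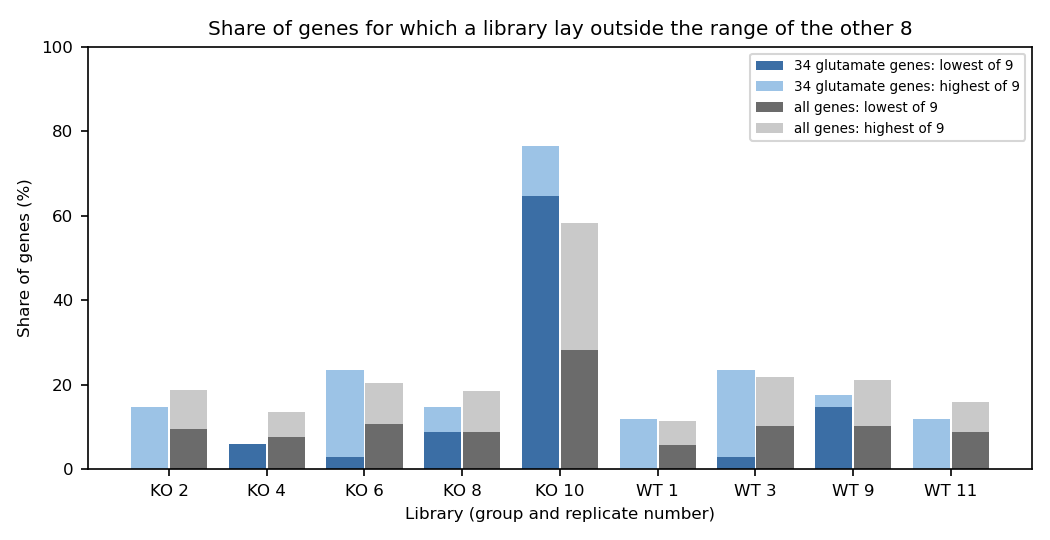
For each library, the share (%) of the 34 glutamate genes (blue) and of all genes (grey) for which it was the lowest (dark) or highest (light) of the 9 libraries. KO replicate 10 reaches 76.5% of the glutamate genes, 64.7% as the lowest, and no other library exceeds 23.5%.

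Levels can be compared between genes only per length, and here normalized CPM was divided by the length of the principal annotated transcript in kb, with the merged length of all annotated exons as a second choice made after the data were seen. By the first measure the highest WT levels were those of Dlg4 (148 normalized CPM per kb), Shank1 (98.5), Slc17a6 (98.4), Grin1 (95.6) and Gria1 (93.8). With merged exons Shank1 (92.1) came first, before Gria1 (83.8), Slc17a6 (75.4), Grin1 (41.8) and Dlg4 (38.8). By the first measure the 2 lowest were Homer3 (2.27) and Slc17a8 (0.472). Of the vesicular transporters measured, Slc17a6 was thus far above Slc17a8.

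Among AMPA subunits the order was Gria1 (93.8), Gria2 (56.2), Gria4 (33) and Gria3 (26.2), with no overlap between neighbours over the 4 WT libraries, and it was the same with merged exons. Grin1 headed the NMDA genes and Grin2c (6.12) was the lowest. Between them, Grin3a (23.2) and Grin2b (22.4) overlapped and traded places with merged exons, and Grin2d (11.6) and Grin2a (9.96) overlapped by either length. Of the kainate genes Grik5 (41.5) came first by either length, while the order of Grik2 and Grik3 and that of Grik1 and Grik4 depended on the length used.

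Grm5 (31.6), Grm7 (28.3) and Grm3 (16.2) led the metabotropic genes by either length. The WT ranges of Grm4 (12.3), Grm2 (11.1) and Grm8 (10.9) overlapped between neighbours by the first length. Dlg4 and then Dlg2 (51.5) were the highest MAGUK genes, and Shank1 was followed by Shank3 (24) and Shank2 (16.2), by either length. The order of Dlg1 and Dlg3 and that of Homer1 and Homer2 turned with the length used.

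**Figure D5:**
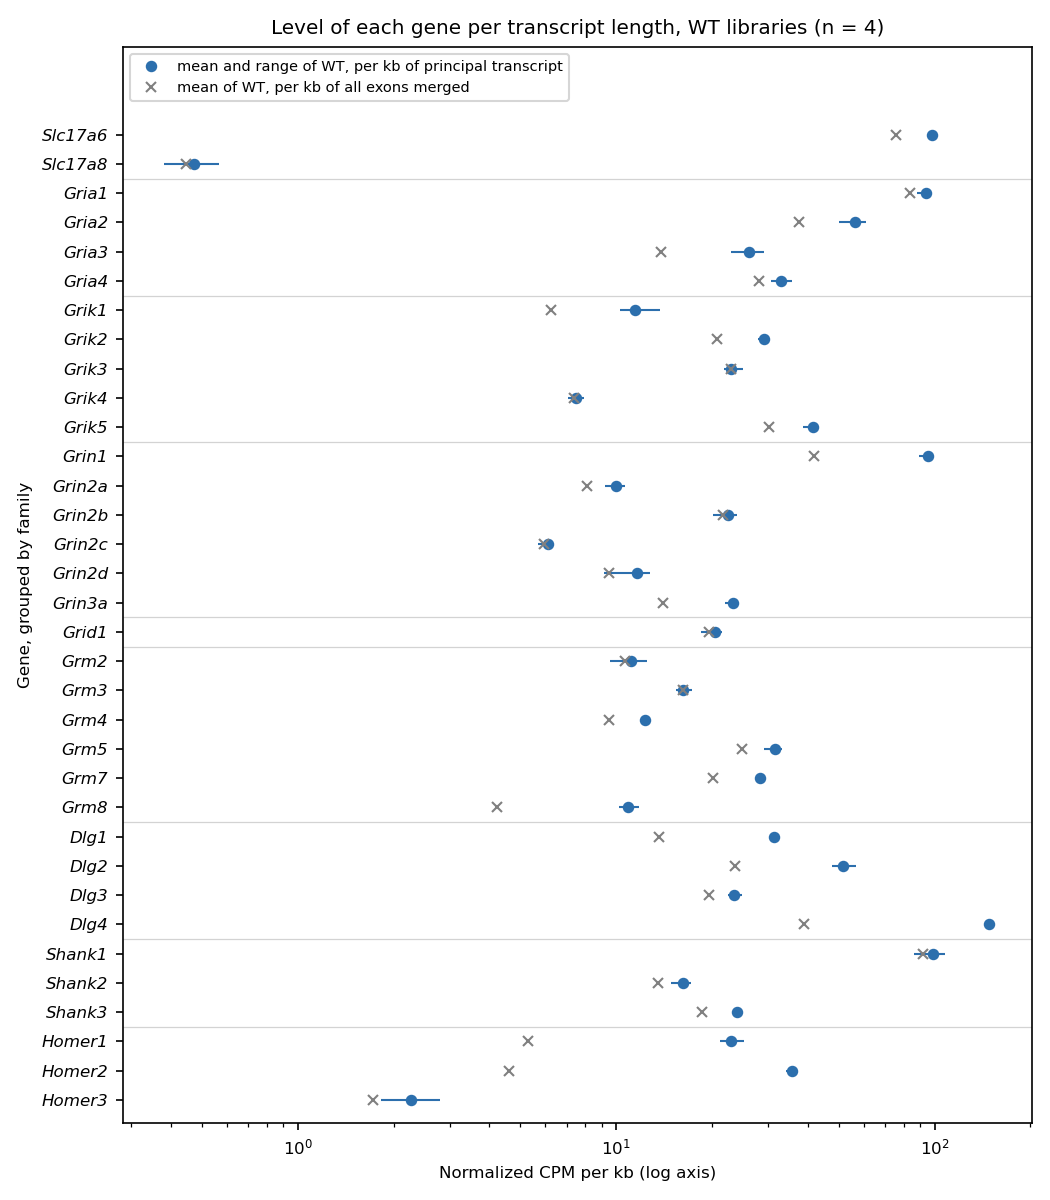
Level of each gene in the 4 WT libraries as normalized CPM per kb on a log axis, with the mean and range per kb of the principal transcript (blue points and lines) and the mean per kb of all exons merged (grey crosses). Slc17a6 at 98.4 and Slc17a8 at 0.472 mark the span within the vesicular transporters, and Dlg4 at 148 is the highest by principal transcript.

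Proteins that work with these receptors were examined as separate lists, and none of their genes passed an adjusted p of 0.05 with or without KO replicate 10. Of 21 auxiliary and trafficking proteins of the receptors, 16 lay below 0, with a median of −0.05 that became 0.03 without KO replicate 10. The smallest p-values in this list were those of Grip1, an AMPA receptor binding protein (47.0 ± 4.81 in KO and 43.4 ± 2.01 in WT, difference 0.11), and Shisa9, an AMPA receptor auxiliary subunit (141 ± 23.1 and 154 ± 8.21, difference −0.15). Of 21 other proteins of the postsynaptic density, 14 lay below 0, with a median of −0.05 that became 0.02. Here Lrrtm2, a synaptic adhesion protein, was 93.0 ± 17.0 in KO and 111 ± 2.18 in WT (−0.27, limma, adjusted p = 0.775) and −0.14 without KO replicate 10. Baiap2, a Shank-binding regulator of actin, had a difference of 0.13.

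Glutamate uptake and metabolism were represented by 15 genes, 8 of them below 0, with a median of −0.03. Slc1a2, the main astrocytic glutamate transporter, averaged 2950 ± 129 in KO and 2730 ± 141 in WT (SD, n = 5 and n = 4), a difference of 0.11 (limma, adjusted p = 0.801). Got2, the mitochondrial aspartate aminotransferase, had a difference of −0.18 (adjusted p = 0.773). Without KO replicate 10 the differences were 0.14 for Slc1a2 and −0.23 for Got2 (limma, adjusted p = 0.236 and 0.198). The largest difference of this list was that of Slc7a11, 0.37 (limma, adjusted p = 0.803). Without KO replicate 10 that difference was 0.55 (limma, adjusted p = 0.0787). Of 5 further receptor genes, 3 were measured. Grina, an NMDA receptor-associated protein, was 112 normalized CPM in KO replicate 10 and 293 to 328 in the other KO libraries, with a difference of −0.29 that became 0.00 without that library.

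Across the lists for cell types and regions, Avp, the vasopressin gene among 10 hypothalamic genes, passed the test, at 207 ± 27.4 in KO and 111 ± 13.6 in WT (0.90, limma, adjusted p = 0.0027). Without Avp, the sums of that list were 513 to 648 in KO and 515 to 586 in WT. The next smallest p in that list was that of Pmch (0.25). In the other lists, the genes named by the smallest p had differences of −0.12 (Gad2 of GABA neurons), −0.16 and −0.17 (Elavl4 and Snap25, pan-neuronal), −0.14 and −0.10 (Slc4a4 and Gja1, astrocytes), −0.22 (Mbp, oligodendrocytes), and 0.68 and −0.23 (Aif1 and Cx3cr1, microglia). Aif1 was low, at 2.02 ± 0.792 in KO and 1.23 ± 0.45 in WT, and its difference was 0.48 without KO replicate 10. It lies 0.112 Mb from Clic1, and the other 5 microglia genes were below 0. For the neighbouring regions, the genes named by the smallest p had differences of 0.16 and −0.16 (Prkcd and Tcf7l2, thalamus). They were 0.23 and 0.21 for cortex and hippocampus (Neurod2 and Neurod6), and −0.21 and −0.22 for striatum (Drd2 and Ppp1r1b). The 5 genes measured for cortex and hippocampus summed to at most 20.4 normalized CPM in any library. Lipe, the 1 adipose gene with a row, had a difference of −0.12, and none of these passed the adjustment.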

How the data were processed

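RNA of the hypothalamus was sequenced from 5 KO and 4 WT mice. The authors trimmed reads with Trimmomatic 0.38, aligned them to GRCm38.p6 with STAR 2.5.1a, estimated counts with RSEM 1.3.0 and Ensembl annotation, removed genes of low CPM and applied TMM scaling with edgeR. The deposited signal, the authors' normalized CPM, was used, and columns of their own comparison (fold changes and p-values) and 1 column that matched no sample were not.

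Depth was estimated from the steps between low values. Only 81% to 86.5% of values up to 2.5 CPM were whole reads within 0.03, so that counts were not recovered and CPM was tested as log2(CPM + 0.1), a scale that understates changes of low genes. limma 3.58.1 in R 4.3.3 (lmFit, eBayes with trend, condition as the only term) was fitted over all 14351 genes with Benjamini-Hochberg adjustment, and tested on simulated data. Exact permutation tests used scipy 1.17.1. A planned ratio of Slc17a6 to Slc17a7 was not run. Positions and lengths came from GENCODE mouse release 21.

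The genes, companion lists and tests were chosen with earlier results of these data known. All 34 genes were named, with values per library for the 12 with the smallest p and for those without overlap, and in each companion list the genes past the threshold and the 2 with the smallest p were named, except for a few that are not reported here. Alternatives were other pseudocounts, a filter, scalings, variance models, sample weights, limma-voom, other placements of replicate 10 and leaving out each library.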

Additional observations from a re-analysis of the deposited data

Results flagged for a closer look

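In KO replicate 10, Grin2b, an NMDA receptor subunit, was 422 normalized CPM, beside 518 to 543 in the other 4 KO libraries. The gap to the nearest library was 0.792 of the whole range of the KO libraries, which is above Dixon's 95% critical value. Each of the 35 genes (the 34 glutamate genes and Clic1) was checked in each group, 70 groups in all. Chance alone would give about 3.5 flagged groups, and only this 1 was flagged, which is fewer. The library concerned is the one whose labels conflict and whose depth was the greatest.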

How the results depend on the processing

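No glutamate gene passed an adjusted p of 0.05 in any of the 18 alternatives. The filter at a mean of 5 CPM removed Slc17a8 and gave 27 genes past the threshold over the whole table, sample weights gave 135 and replicate 10 counted as WT gave 5. Leaving out each library gave 18 (WT replicate 1) to 87 (KO replicate 10), with 27 without KO replicate 6, 25 without KO replicate 8, and 19, 24 and 22 without WT replicates 3, 9 and 11. The sample weights gave KO replicate 10 a weight of 0.129 and the others 0.749 to 2.44. The number of glutamate genes at an unadjusted p under 0.05 was 2 with limma-voom, 2 with replicate 10 as WT and 1 to 2 when each library was left out, beside 7.83%, 6.65% and 4.68% to 10.5% of all genes.

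The difference of Clic1 was −1.51 with replicate 10 as WT, and −1.94 to −1.62 when each library was left out. With replicate 10 as WT, differences turned for Grik3 (0.0449), Grin2b (0.0542), Grin2c (−0.0330), Grm2 (0.0362), Grm4 (0.0150), Dlg2 (0.0255) and Dlg3 (−0.0498). Of the 216 comparisons made for the 12 genes described per library, no sign or call changed in the other 209, and of 395 values for the other 22 genes, 390 moved by less than the spread between libraries. Leaving out each library gave −0.0016 to 0.0570 for the ratio of Grin2a to Grin2b and −0.0626 to 0.0147 for that of Gria1 to Gria2, both of which crossed 0. The cause of these shifts was not tested.

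No paired analysis was run, and which of these mice shared a litter is not known here. Depth is known only as an estimate, and for Slc17a8 and Homer3 the low level limited precision most.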
